A study of Mus musculus with 48 samples.

Results

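The 10 regulators of G-protein signalling described here were measured in the striatum of Huntington's disease model mice that differ in Msh3. They are Rgs2, Rgs4, Rgs6, Rgs7, Rgs8, Rgs9, Rgs10, Rgs14, Rgs16 and Rgs17, matched by gene symbol in the deposited count table. They make up 10 of its 48795 genes. The set is the neuronal part of the family, and Rgs5, a marker of vessel wall cells, was left out of it. The set was chosen with earlier measurements of these libraries known, and it is taken as selected on the log2 fold changes of Q140 against wild type. For that reason, values of that contrast and of every contrast that shares its libraries are given as description with no p. All 10 genes passed the filter on low counts.

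The RNA came from the corpus striatum, dissected at 6 months of age from mice on a C57BL/6 background, 24 of them labelled female and 24 male. Mice labelled Q140 carry 1 copy of Htt, the gene mutated in Huntington's disease, with a long CAG repeat knocked into it, and Msh3 encodes a DNA mismatch repair protein whose loss is studied for its effect on repeat length. The 6 groups were Q140 (n = 8), Q140 with Msh3+/- (n = 8), Q140 with Msh3-/- (n = 8), Msh3+/- without Q140 (n = 9), Msh3-/- without Q140 (n = 8) and wild type (n = 7). The labels do not say how the Msh3 allele was made or whether libraries came from different mice. That they did is an assumption, and if some did not, the p-values would measure a spread that is in part technical.

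RGS proteins bind the GTP-loaded alpha subunit of a heterotrimeric G protein and speed up its hydrolysis of GTP, which shortens the signal that a G-protein-coupled receptor started. The R4 subfamily holds small proteins with little outside the RGS domain, and Rgs2, Rgs4, Rgs8 and Rgs16 belong to it. The R7 subfamily, with Rgs6, Rgs7 and Rgs9, works as a complex with the beta subunit Gnb5 and a membrane anchor such as Rgs7bp. Rgs10 and Rgs14 are in the R12 subfamily, and Rgs17 is in the RZ subfamily, which acts on Gz and other inhibitory alpha subunits. In the striatum, medium spiny neurons receive dopamine, adenosine, acetylcholine and cannabinoid signals through such receptors, and a long splice form of Rgs9 is known there as a brake on dopamine and opioid receptor signalling.

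The sequences upstream of 4 of the genes are printed so that their start regions can be set side by side. They are the 250 bases before the most upstream start that RefSeq annotates, 5′ to 3′ on the gene's own strand, as RefSeq gives them on GRCm38.p6. Rgs8 had 3 annotated starts, and Rgs4, Rgs9 and Rgs2 had 1 each. Rgs4 and Rgs9 are shown because they had the highest levels of the 10 and were lower with Q140. Rgs2 is shown for its wide variation between libraries of 1 group, and Rgs8 as a member with a narrow range of group means, between 272 and 304 CPM (reads scaled to the library size). Capitals mark the 3 motifs searched on both strands, which were TATAAA (it reads TTTATA when on the opposite strand), CCAAT (it reads ATTGG there) and TGACG (it reads CGTCA there). The windows are chr1:169747643-169747892 on the minus strand for Rgs4, chr11:109298182-109298431 on the minus strand for Rgs9, chr1:144004150-144004399 on the minus strand for Rgs2 and chr1:153652787-153653036 on the plus strand for Rgs8.
Rgs4: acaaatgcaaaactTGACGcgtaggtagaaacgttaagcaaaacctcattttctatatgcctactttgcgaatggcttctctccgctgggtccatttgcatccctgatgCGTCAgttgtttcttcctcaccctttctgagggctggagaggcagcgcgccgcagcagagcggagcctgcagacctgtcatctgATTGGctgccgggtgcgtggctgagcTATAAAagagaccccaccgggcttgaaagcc
Rgs9: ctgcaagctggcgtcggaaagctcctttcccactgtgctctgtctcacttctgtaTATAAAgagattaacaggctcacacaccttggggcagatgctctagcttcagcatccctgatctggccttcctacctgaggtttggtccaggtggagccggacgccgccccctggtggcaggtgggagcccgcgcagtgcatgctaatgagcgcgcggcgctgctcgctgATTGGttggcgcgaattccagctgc
Rgs2: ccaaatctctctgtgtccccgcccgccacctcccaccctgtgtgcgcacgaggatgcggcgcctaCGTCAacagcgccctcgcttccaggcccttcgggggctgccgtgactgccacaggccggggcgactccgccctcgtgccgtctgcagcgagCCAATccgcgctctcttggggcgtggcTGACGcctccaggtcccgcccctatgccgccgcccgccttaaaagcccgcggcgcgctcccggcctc
Rgs8: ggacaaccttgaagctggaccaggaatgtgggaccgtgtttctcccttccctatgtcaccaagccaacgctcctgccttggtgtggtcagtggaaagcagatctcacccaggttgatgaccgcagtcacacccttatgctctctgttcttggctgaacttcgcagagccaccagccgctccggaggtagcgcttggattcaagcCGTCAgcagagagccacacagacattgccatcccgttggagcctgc

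Such a window was matched in the RefSeq table for 9 of the 10 members, all but Rgs14. TATAAA occurred in 2 of the 9 windows, those of Rgs4 and Rgs9, and in 13.0% of the 27025 promoters in the table. Its first base stood 31 bases before the start in Rgs4 and 195 bases before it in Rgs9. CCAAT occurred in 4 of the 9 (Rgs2, Rgs4, Rgs9 and Rgs16) and in 34.5% of all promoters. TGACG, the core of a cyclic AMP response element, occurred in 3 of the 9 (Rgs2, Rgs4 and Rgs8) and in 17.8% of all promoters, and it did not overlap the other motifs. The window of Rgs2 was 72.4% G and C, that of Rgs9 59.6%, that of Rgs8 57.2% and that of Rgs4 53.6%, beside a median of 52.0% over all promoters. These matches describe letters and are not shown to be sites in use.

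The genes are spread over 6 chromosomes, with 5 of them on chromosome 1. On GRCm38 with the GENCODE M21 annotation, Rgs2 (ENSMUSG00000026360) spans chr1:143999338-144004161, Rgs8 (ENSMUSG00000042671) chr1:153653025-153700323, Rgs16 (ENSMUSG00000026475) chr1:153740349-153745468, Rgs4 (ENSMUSG00000038530) chr1:169741477-169747642 and Rgs7 (ENSMUSG00000026527) chr1:175059087-175492500. Rgs16 starts 40.03 kb beyond the end of Rgs8 on the same strand. The others are Rgs6 (ENSMUSG00000021219) at chr12:82588292-83162056, Rgs9 (ENSMUSG00000020599) at chr11:109225355-109298129, Rgs10 (ENSMUSG00000030844) at chr7:128373621-128418758, Rgs14 (ENSMUSG00000052087) at chr13:55369732-55384687 and Rgs17 (ENSMUSG00000019775) at chr10:5825663-5922400. Rgs14 shares chromosome 13 with Msh3 and lies 36.83 Mb from it. Of the annotated genes that overlap a member, only Gm15503, on the strand of Rgs10, had enough reads to be tested, at a mean of 0.425 CPM beside 31.2 CPM for Rgs10.

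Total counts per library ran from 33673410 to 52808289, and 19975 genes were tested. Levels are given as CPM, counts-per-million after TMM scaling of the library sizes, and differences as log2 fold changes with their standard error. "Rose" and "fell" mark a Benjamini-Hochberg adjusted p under 0.05 over all genes tested. Msh3 reads were higher in the libraries labelled as Msh3 mutants, at 76.9 ± 3.14 CPM in Q140 Msh3+/-, 125 ± 6.60 in Q140 Msh3-/-, 77.4 ± 4.73 in Msh3+/-, 119.6 ± 7.03 in Msh3-/-, 32.1 ± 1.27 in Q140 and 31.0 ± 1.45 in wild type. The counts therefore do not show the loss of Msh3, and every direction along Msh3 genotype rests on the labels. Sex-linked reads matched the label in 48 of 48 libraries. All 15 medium spiny neuron markers had reads in every group. Q140 Msh3+/- F1 stood apart with a summed level of 5 choroid plexus markers of 4201 CPM, where the next highest, wild type M2, had 593 CPM.

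Per gene length, Rgs4 and Rgs9 were far above the others in every group. FPKM divides the count by gene length and by the library total, so that genes can be compared. Rgs4 averaged 149 ± 21.5 FPKM in Q140, 189 ± 17.3 in Q140 Msh3+/-, 211 ± 11.6 in Q140 Msh3-/-, 247 ± 25.3 in Msh3+/-, 238 ± 20.6 in Msh3-/- and 239.6 ± 17.4 in wild type (SD, n as above). Rgs9 came second in all 6 groups, at 103 ± 15.5 FPKM in Q140 and 142 ± 9.25 FPKM in wild type. The libraries of Q140 overlapped between these top genes, and those of the other 5 groups did not.

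A middle set followed, made up of Rgs2, Rgs14, Rgs8 and Rgs10. In wild type their order was Rgs2 at 37.6 ± 9.72, Rgs14 at 31.2 ± 2.02, Rgs8 at 29.2 ± 1.89 and Rgs10 at 19.3 ± 1.03 FPKM. The ranges of Rgs2 and Rgs14 overlapped there, as did those of Rgs14 and Rgs8. In all 3 groups with Q140 the order of Rgs14 and Rgs8 was the other way round, with Rgs8 at 29.3 ± 1.84 and Rgs14 at 19.1 ± 2.64 FPKM in Q140, where their ranges did not overlap. In Msh3-/- without Q140, Rgs8 also averaged above Rgs14, at 30.3 ± 1.55 and 28.7 ± 1.60 FPKM, with overlapping ranges. Rgs17 at 8.95 ± 0.365 and Rgs7 at 8.80 ± 0.455 FPKM in wild type did not differ beyond their spread, and Rgs6 at 2.32 ± 0.159 and Rgs16 at 1.53 ± 0.213 FPKM were the lowest.

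**Figure D1:**
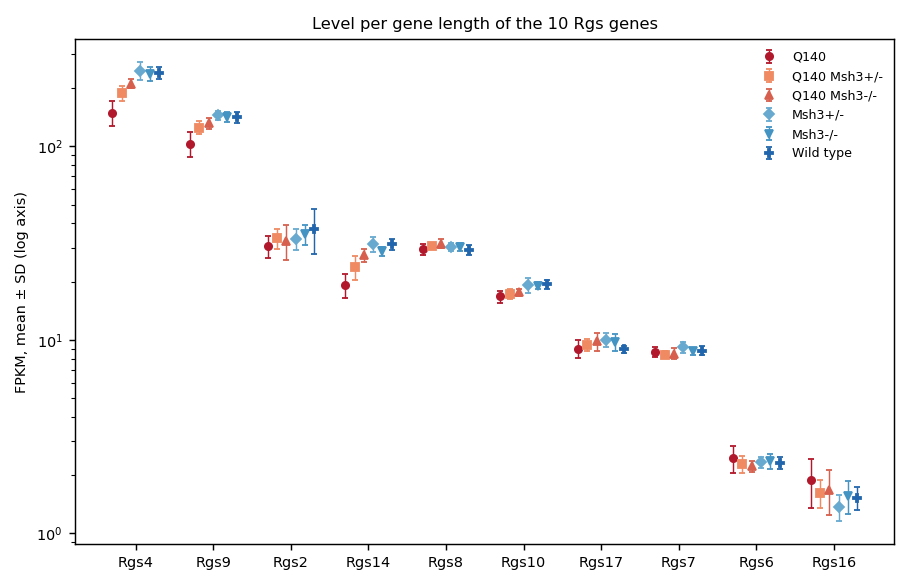
FPKM of the 10 Rgs genes (log axis, mean ± SD over 7 to 9 libraries) in the 6 groups. Rgs4 and Rgs9 lie above the other 8 genes in every group, and Rgs4 averaged 149 FPKM in Q140 and 239.6 FPKM in wild type.

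Together the 10 genes summed to 370.0 ± 40.6 FPKM in Q140, 440.5 ± 22.0 in Q140 Msh3+/-, 474 ± 19.6 in Q140 Msh3-/-, 528 ± 30.5 in Msh3+/-, 515 ± 20.0 in Msh3-/- and 521 ± 26.6 in wild type. Among all 21 genes of the table whose symbol starts with Rgs and a digit, Rgs4 and Rgs9 together held 59.3% of the FPKM in Q140, 62.7% in Q140 Msh3+/-, 64.3% in Q140 Msh3-/- and 65.9% in wild type. The ratio of Rgs4 to Rgs9 in FPKM was 1.45 ± 0.129 in Q140 and 1.69 ± 0.172 in wild type. These sums are descriptions and follow mainly the 2 most abundant genes.

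Q140 Msh3+/- was compared with Msh3+/- to ask what the expanded repeat does where 1 copy of Msh3 is mutated. Of the 10 Rgs genes, 5 fell and 0 rose. They were Rgs4 of the R4 subfamily, Rgs7 and Rgs9 of the R7 subfamily, and Rgs10 and Rgs14 of the R12 subfamily. At the same threshold 3.49% of all genes tested fell (697) and 2.96% rose (592). Rgs4 and Rgs14 fell by 26.2% and 26.5%, and the other 3 by 11.6% to 16.7%. The libraries of this comparison took no part in the contrast of Q140 with wild type, on which the set is taken as selected. Of all genes lower past the threshold in that contrast, 30.3% also fell here. The shares over all genes are therefore no neutral background for the members, and nothing is read from their count. In RNA from whole tissue, fewer cells of a type and less RNA per cell cannot be told apart.

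Rgs4, a small R4 protein that acts on Gi and Gq and is abundant in medium spiny neurons, ranged over 505 to 691 CPM with a median of 584 in Q140 Msh3+/- libraries (n = 8), against 616 to 901 CPM with a median of 779 in Msh3+/- libraries (n = 9). In 7 of the 8 Q140 Msh3+/- libraries it was below every Msh3+/- library. It fell by 0.44 on the log2 scale (SE 0.073, adjusted p = 8.04e-05).

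Rgs9, the striatum-enriched R7 member, ranged over 723 to 929 CPM with a median of 781 in Q140 Msh3+/- libraries, against 851 to 1021 CPM with a median of 938 in Msh3+/- libraries. Again 7 of the 8 Q140 Msh3+/- libraries were below every Msh3+/- library, and M4, at 929 CPM, was not. Rgs9 fell by 0.26 (SE 0.061, adjusted p = 0.00466). Rgs7, the R7 member found widely in brain neurons, ranged over 46.6 to 52.6 CPM with a median of 49.9 in Q140 Msh3+/- libraries, against 49.5 to 64.1 CPM with a median of 56.1 in Msh3+/- libraries. Its groups overlapped more, with 2 of the 8 Q140 Msh3+/- libraries below every Msh3+/- library and all 8 below the Msh3+/- median. Rgs7 fell by 0.18 (SE 0.044, adjusted p = 0.0073).

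Rgs14 joins an RGS domain with domains that bind Ras proteins and an inactive alpha subunit, and is best known for limiting synaptic plasticity in a field of the hippocampus. It ranged over 42.0 to 70.5 CPM with a median of 59.4 in Q140 Msh3+/- libraries, against 70.0 to 91.2 CPM with a median of 77.7 in Msh3+/- libraries. The 2 groups touched in a narrow band only, with 7 of 8 Q140 Msh3+/- libraries below every Msh3+/- library and 8 of 9 Msh3+/- libraries above every Q140 Msh3+/- library. Rgs14 fell by 0.44 (SE 0.073, adjusted p = 7.84e-05). Rgs10, a short R12 protein that is little more than an RGS domain and is also found in microglia, ranged over 26.7 to 31.8 CPM with a median of 28.7 in Q140 Msh3+/- libraries, against 29.0 to 38.2 CPM with a median of 33.2 in Msh3+/- libraries. Of the Q140 Msh3+/- libraries, 5 of 8 were below every Msh3+/- library and all 8 were below its median. Rgs10 fell by 0.19 (SE 0.045, adjusted p = 0.00442). The summed level of 8 microglia markers was 384 to 431 CPM in Q140 Msh3+/- and 348 to 478 CPM in Msh3+/-. Their median log2 fold change was -0.084, beside 0.004 over all genes tested, and 0 of 8 were called. The part of microglia in the fall of Rgs10 was not tested.

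**Figure D2:**
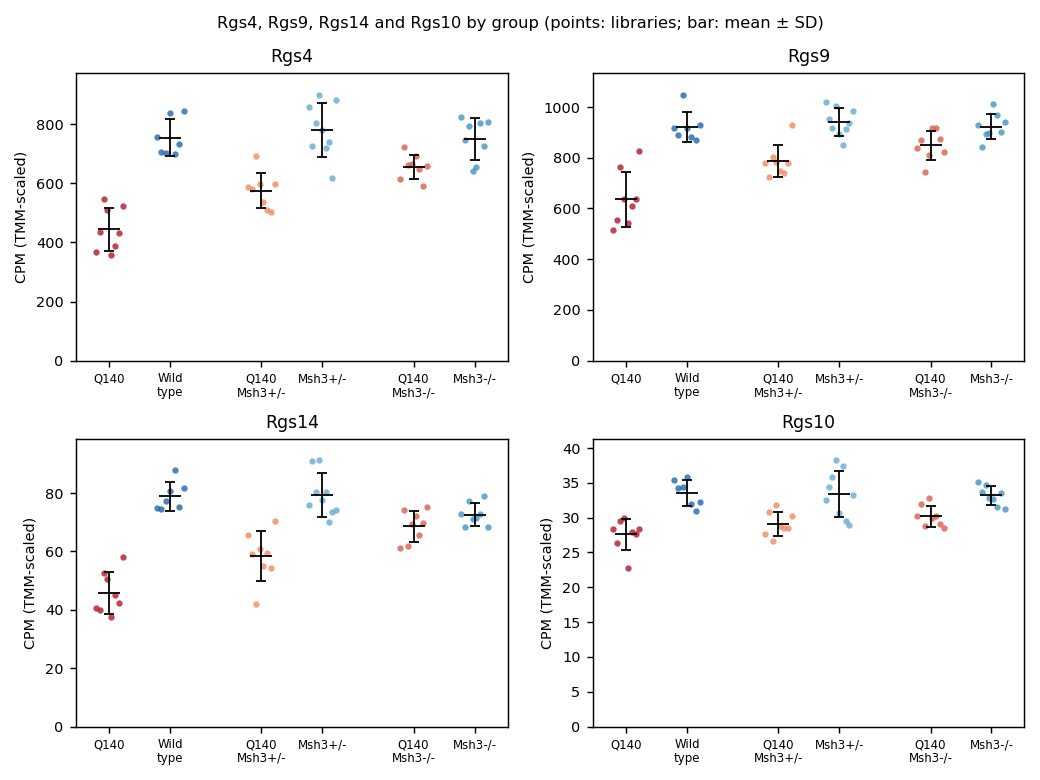
CPM per library (points) with mean ± SD (bars) of Rgs4, Rgs9, Rgs14 and Rgs10, with each Q140 group left of the group of the same Msh3 genotype without Q140. For all 4 genes Q140 does not overlap wild type, and Q140 Msh3-/- overlaps Msh3-/-.

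The other 5 members did not pass. Rgs17, an RZ member, differed by -0.14 (SE 0.065), with an interval of 1.96 SE from -0.27 to -0.013 and an adjusted p of 0.219. Rgs6, the R7 member linked to muscarinic signalling in the heart, differed by -0.10 (SE 0.064) and an interval from -0.23 to 0.025. Rgs8, an R4 protein known from cerebellar Purkinje cells, differed by -0.026 (SE 0.041), and its interval from -0.11 to 0.055 was the narrowest of the 10. Rgs2, an R4 protein with a preference for Gq and an early response to neuronal activity, differed by -0.042 (SE 0.12) with an interval from -0.27 to 0.19. Rgs16, the least abundant member, was the only one with a higher mean, at 0.20 (SE 0.14) and an interval from -0.071 to 0.46. With libraries scaled by their totals in place of TMM, the values of Rgs2 and Rgs8 also turned positive.

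Over the 10 members the median difference was -0.16, beside 0.004 over all genes tested. Scaled by library totals, the members' median was -0.11 beside a median of 0.056 for all genes, and the split of all calls was 1793 higher and 413 lower. The same 5 members passed under that scaling and under the other 11 settings tried. Choroid plexus markers were higher in this comparison, with 5 of 5 called, and 0 of 5 without Q140 Msh3+/- F1. Leaving out that library left 5 members lower and 0 higher. Medium spiny neuron markers moved with the Rgs genes. Of 15 such markers, none of them an Rgs gene, 12 fell and 0 rose, and their summed level was 13720.4 to 16470.5 CPM in Q140 Msh3+/-, against 17239 to 20516 CPM in Msh3+/-. No marker of the list was at 0 throughout a group, and the part of the list in the change of the Rgs genes was not tested. Of 8 astrocyte markers 2 fell, of 5 GABAergic interneuron markers 1 fell, and 0 of 8 oligodendrocyte, 8 microglia, 8 endothelial and mural, 4 cholinergic and 7 cortical markers were called. Markers without a call may still differ, and the median log2 fold change was -0.76 for the cortical list, beside -0.24 for the medium spiny neuron list. The cortical markers, listed because Rgs4 is also a gene of cortical neurons, summed to 53.5 to 76.0 CPM in Q140 Msh3+/-, against 50.8 to 188 CPM in Msh3+/-, where F5 was the highest.

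Q140 Msh3-/- was compared with Msh3-/- to ask what the repeat does where both copies of Msh3 are mutated. By edgeR none of the 10 Rgs genes passed, and 0.0751% of all genes tested did (10 higher and 5 lower). An unadjusted p under 0.05 was found for 2 members and 1342 genes, and DESeq2 called 0 members too. The members' median was -0.095, beside 0.0018 over all genes. Of the 15 medium spiny neuron markers 1 fell (0 to 1 when single libraries were left out), with summed levels of 15373 to 17406 CPM in Q140 Msh3-/-, against 17900.0 to 19365 CPM in Msh3-/-.

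Rgs10 came closest to the threshold. It ranged over 28.5 to 32.8 CPM with a median of 30.1 in Q140 Msh3-/- libraries (n = 8), against 31.3 to 35.1 CPM with a median of 33.2 in Msh3-/- libraries (n = 8), and 6 of the 8 Q140 Msh3-/- libraries were below every Msh3-/- library. The difference was -0.14 (SE 0.046), with an unadjusted p of 0.00456 and an adjusted p of 0.462 from edgeR. Rgs4 ranged over 592 to 723 CPM with a median of 660.1 in Q140 Msh3-/- libraries, against 643 to 825 CPM with a median of 769.9 in Msh3-/- libraries. All 8 Q140 Msh3-/- libraries were below the Msh3-/- median, and 2 were below every Msh3-/- library. Its difference was -0.19 (SE 0.075), with an unadjusted p of 0.0137 and an adjusted p of 0.619.

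Rgs9 had 745 to 917 CPM with a median of 854 in Q140 Msh3-/-, against 844 to 1011 CPM with a median of 916 in Msh3-/-. In 4 of the 8 Q140 Msh3-/- libraries Rgs9 was below every Msh3-/- library, and the other 4 overlapped. The difference was -0.12 (SE 0.063) with an adjusted p of 0.763. Rgs14 had 61.3 to 75.1 CPM with a median of 69.6 in Q140 Msh3-/-, against 68.2 to 78.8 CPM with a median of 72.2 in Msh3-/-. Its groups overlapped in 5 of the 8 Q140 Msh3-/- libraries, and the difference was -0.082 (SE 0.075) with an interval of 1.96 SE from -0.23 to 0.065. That interval leaves room for a difference of up to 0.23 in the lower direction. The remaining 6 members were at -0.13 (SE 0.12) for Rgs2, -0.11 (SE 0.066) for Rgs6, -0.056 (SE 0.045) for Rgs7, -0.0084 (SE 0.067) for Rgs17, 0.032 (SE 0.043) for Rgs8 and 0.088 (SE 0.14) for Rgs16. Every one of these values was within 2 standard errors of 0.

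**Figure D3:**
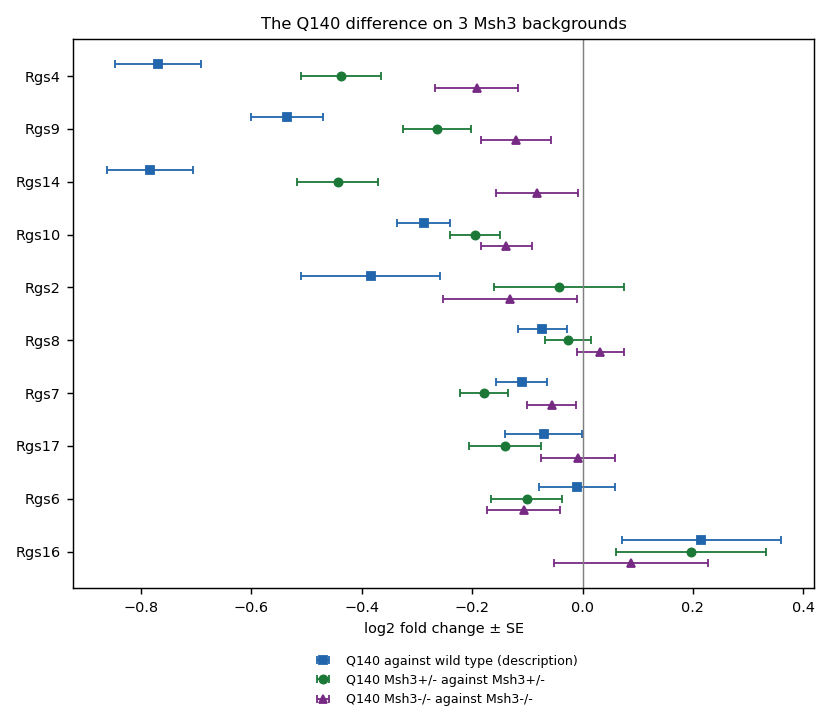
Log2 fold change ± SE of each Rgs gene for Q140 against wild type, Q140 Msh3+/- against Msh3+/- and Q140 Msh3-/- against Msh3-/-, 3 contrasts that share no library. Rgs14 stood at -0.78, -0.44 and -0.082, and Rgs4 at -0.77, -0.44 and -0.19, in that order.

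Whether the Q140 difference itself differed between the 2 mutant backgrounds was tested as an interaction. By edgeR no Rgs gene passed, and 0% of all genes tested did. At an unadjusted p under 0.05 there were 2 members and 1220 genes, and DESeq2 called 0 genes. Rgs14 had the smallest p of the members, with a difference of 0.36 (SE 0.10), an unadjusted p of 0.00126 and an adjusted p of 0.756. For Rgs4 the difference was 0.25 (SE 0.10), with an unadjusted p of 0.0229 and an adjusted p of 0.79. Rgs9 was at 0.14 (SE 0.088), Rgs7 at 0.12 (SE 0.062) and Rgs10 at 0.057 (SE 0.064). So the calls made on the Msh3+/- background and missed on the Msh3-/- background are not shown to differ between them.

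Q140 Msh3-/- was also set directly against Q140 Msh3+/-. By edgeR no Rgs gene passed, beside 0.015% of all genes tested (1 higher and 2 lower), and 2 members and 1173 genes had an unadjusted p under 0.05. DESeq2 called 0 members, with 7 genes higher and 18 lower. Rgs14 ranged over 61.3 to 75.1 CPM with a median of 69.6 in Q140 Msh3-/- libraries, against 42.0 to 70.5 CPM with a median of 59.4 in Q140 Msh3+/- libraries. In 3 of the 8 Q140 Msh3-/- libraries it was above every Q140 Msh3+/- library, and all 8 were above that group's median. The difference was 0.23 (SE 0.075), with an unadjusted p of 0.0034 and an adjusted p of 0.458. Rgs4 was at 0.19 (SE 0.075), with all 8 Q140 Msh3-/- libraries above the Q140 Msh3+/- median of 584 CPM, an unadjusted p of 0.0133 and an adjusted p of 0.698. Rgs9 was at 0.11 (SE 0.063), and the other 7 members lay between -0.016 for Rgs2 and 0.091 for Rgs17.

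Without Q140, the Msh3 genotype made no called difference to the Rgs genes. Msh3-/- against Msh3+/- gave 0 members by edgeR and by DESeq2, beside 0.015% of all genes tested (2 higher and 1 lower). At an unadjusted p under 0.05 there were 0 members and 1045 genes. The values ran from -0.13 (SE 0.073) for Rgs14 to 0.19 (SE 0.14) for Rgs16, with a median of -0.019 over the members. Rgs14 ranged over 68.2 to 78.8 CPM with a median of 72.2 in Msh3-/- libraries, against 70.0 to 91.2 CPM with a median of 77.7 in Msh3+/- libraries, and its unadjusted p was 0.0858. For Rgs4 the difference was -0.053 (SE 0.073) and for Rgs9 -0.032 (SE 0.061).

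**Figure D4:**
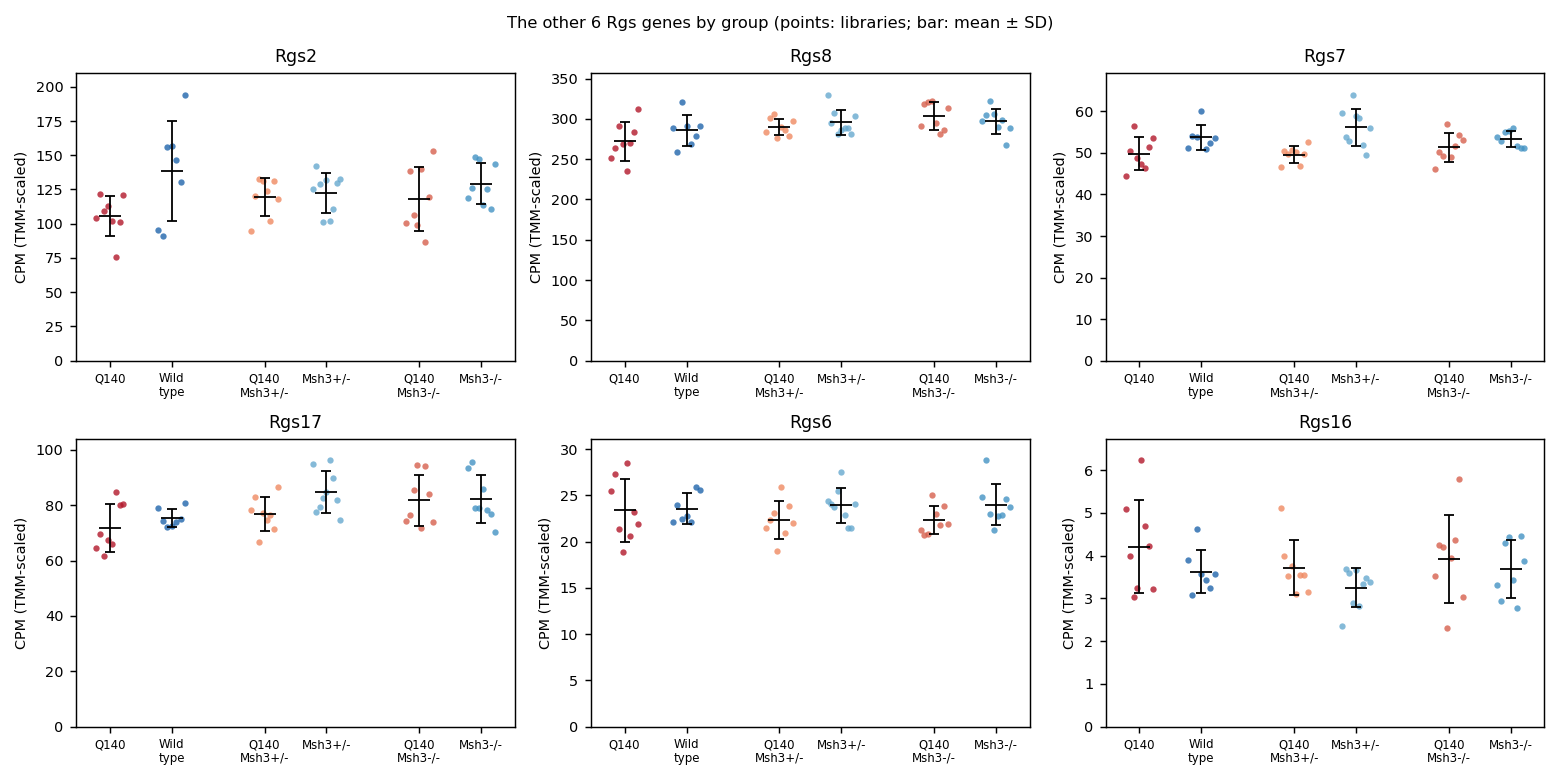
CPM per library (points) with mean ± SD (bars) of Rgs2, Rgs8, Rgs7, Rgs17, Rgs6 and Rgs16, with each Q140 group left of the group of the same Msh3 genotype without Q140. Rgs2 in wild type ran from 90.7 to 194 CPM, and for all 6 genes the groups overlap.

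The contrast of Q140 with wild type, which is taken as having entered the choice of the genes, is given for its sizes. Past the threshold, 5 members were lower, Rgs2, Rgs4, Rgs9, Rgs10 and Rgs14, and 0 were higher, where 10.2% of all genes were lower and 9.64% higher. Nothing is read from that count. Rgs4 ranged over 359 to 546 CPM with a median of 434 in Q140 libraries (n = 8), against 699 to 844 CPM with a median of 734 in wild type libraries (n = 7). Rgs9 ranged over 513 to 826 CPM with a median of 623 in Q140 libraries, against 871 to 1049 CPM with a median of 916 in wild type libraries. Every Q140 library was below every wild type library for both. Rgs14 ranged over 37.5 to 58.2 CPM with a median of 43.8 in Q140 libraries, against 74.4 to 87.9 CPM with a median of 77.4 in wild type libraries, and Rgs10 over 22.7 to 30.0 CPM with a median of 28.1 in Q140 libraries, against 30.9 to 35.8 CPM with a median of 34.2 in wild type libraries. These groups were apart as well, as they were for 1.85% of all genes in the lower direction. The medium spiny neuron markers summed to 10457 to 15168 CPM in Q140, against 16878 to 19279.6 CPM in wild type, and 14 of the 15 were lower past the threshold. So were 4 of 8 astrocyte, 2 of 8 microglia, 2 of 8 endothelial and mural, 1 of 5 GABAergic, 1 of 7 cortical and 1 of 5 choroid plexus markers, and 1 cortical marker was higher. The microglia markers summed to 336 to 433 CPM in Q140, against 407 to 556 CPM in wild type. The part of these lists in the differences of the Rgs genes was not tested.

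The differences were -0.78 (SE 0.078) for Rgs14, -0.77 (SE 0.078) for Rgs4, -0.54 (SE 0.065) for Rgs9, -0.38 (SE 0.13) for Rgs2 and -0.29 (SE 0.048) for Rgs10. Rgs7 was at -0.11 (SE 0.046), Rgs8 at -0.073 (SE 0.044), Rgs17 at -0.07 (SE 0.069), Rgs6 at -0.0098 (SE 0.068) and Rgs16 at 0.22 (SE 0.14). Of the 5 genes lower here, 4 (Rgs4, Rgs9, Rgs10 and Rgs14) were also among the 5 that fell in Q140 Msh3+/- against Msh3+/-, a comparison with no library in common. Over all genes tested, 619 were lower in both, which is 30.3% of those lower in Q140 against wild type and 88.8% of those that fell in Q140 Msh3+/- against Msh3+/-. Since 1 of the contrasts entered the choice, nothing is read from the members' overlap. Rgs2 was in the first set only and Rgs7 in the second only, and whether their differences differ between the contrasts was not tested. Scaled by library totals, Rgs6, Rgs8 and Rgs17 turned positive in Q140 against wild type, and the split of all genes, 1926 higher and 2043 lower by TMM, became 5074 and 1104.

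Rgs2 varied widely in wild type, where it ran from 90.7 to 194 CPM with a coefficient of variation of 26.4%. Q140 libraries had 75.7 to 121 CPM and lay within that range except for M2, the lowest, at 75.7 CPM. Rgs16 also varied widely, with 26.1% in Q140. Rgs4 had a coefficient of variation of 16.3% in Q140 and 8.30% in wild type, and Rgs9 one of 17.2% in Q140 and 6.49% in wild type. At the other end, Rgs8 had 3.60% in Q140 Msh3+/- and Rgs7 had 3.67% in Msh3-/-. These spreads are described and were not compared with a test.

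Along the Msh3 genotypes, the Q140 groups stood in the order Q140, Q140 Msh3+/-, Q140 Msh3-/- for the means of Rgs4, Rgs8, Rgs9, Rgs10, Rgs14 and Rgs17. Rgs4 averaged 445 ± 72.7 CPM in Q140, 575 ± 60.0 CPM in Q140 Msh3+/- and 657 ± 40.5 CPM in Q140 Msh3-/- (SD, n = 8 each), with 754 ± 62.6 CPM in wild type (n = 7). For Rgs14 the means were 45.8 ± 7.20 CPM in Q140, 58.4 ± 8.49 in Q140 Msh3+/-, 68.6 ± 5.25 in Q140 Msh3-/- and 78.9 ± 4.92 in wild type. For Rgs9 they were 636 ± 109 CPM in Q140, 786 ± 63.6 in Q140 Msh3+/-, 849 ± 57.6 in Q140 Msh3-/- and 922 ± 59.8 in wild type. For all 3 genes Q140 Msh3-/- had a mean below that of wild type, and the step between Q140 Msh3+/- and Q140 Msh3-/- was tested and not called. The summed medium spiny neuron markers stood in the same order. Their medians were 12517.5 CPM in Q140, 14904.8 in Q140 Msh3+/-, 16672.4 in Q140 Msh3-/- and 18426.1 in wild type. The share of all genes in this order was not counted, and the Q140 libraries are in the contrast of the choice.

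Against Q140, which shares its libraries with the contrast of the choice, 4 members were higher past the threshold in Q140 Msh3-/-, namely Rgs4, Rgs8, Rgs9 and Rgs14, where 6.85% of all genes were higher. The differences were 0.58 (SE 0.076) for Rgs14, 0.56 (SE 0.075) for Rgs4, 0.42 (SE 0.063) for Rgs9 and 0.16 (SE 0.043) for Rgs8. The value of Rgs8 was 0.096 by library totals, 0.097 on log2(FPKM + 0.1) and 0.094 on log2(FPKM + 1). Of the medium spiny neuron markers 14 of 15 were higher as well, with 2 of 8 astrocyte, 1 of 8 microglia and 1 of 5 GABAergic markers, and 2 of 7 cortical markers were lower. For Rgs4 and Rgs14 every Q140 Msh3-/- library was above every Q140 library, as for 0.436% of all genes in that direction. In Q140 Msh3+/- against Q140, 3 members were higher, where 1.28% of all genes were, with 0.37 (SE 0.075) for Rgs4, 0.35 (SE 0.076) for Rgs14 and 0.31 (SE 0.063) for Rgs9. All 8 Q140 Msh3+/- libraries were above the Q140 median for Rgs4 and Rgs9, and 7 of 8 were for Rgs14. In this contrast 7 of 15 medium spiny neuron markers and 4 of 5 choroid plexus markers were higher. The part of the marker lists in either contrast was not tested.

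Against wild type, Q140 Msh3+/- had 4 members lower past the threshold, where 2.23% of all genes were lower. They were Rgs14 at -0.43 (SE 0.078), Rgs4 at -0.40 (SE 0.077), Rgs9 at -0.23 (SE 0.065) and Rgs10 at -0.21 (SE 0.048). Of the medium spiny neuron markers 9 of 15 were lower and 1 higher, and 3 of 8 oligodendrocyte, 2 of 8 astrocyte, 1 of 8 microglia, 1 of 5 GABAergic and 1 of 7 cortical markers were lower, with their part not tested. Q140 Msh3-/- had 0 members past it, where 0.2% of all genes were in either direction, with -0.21 (SE 0.077) for Rgs4, -0.20 (SE 0.078) for Rgs14, -0.16 (SE 0.048) for Rgs10 and -0.12 (SE 0.065) for Rgs9. For Rgs4 and Rgs14, 7 of the 8 Q140 Msh3-/- libraries were still below every wild type library. The same wild type and Q140 libraries stand on 1 side of several of these contrasts, so their values are not independent of each other. The Msh3 genotypes without Q140 had 0 members past the threshold against wild type, where 0.01% of all genes were for Msh3+/- and 0.03% for Msh3-/-. By library totals the splits of all genes changed, from 1368 higher and 1006 lower to 804 and 3459 for Q140 Msh3-/- against Q140, from 256 and 139 to 229 and 495 for Q140 Msh3+/- against Q140, and from 306 and 446 to 1059 and 288 for Q140 Msh3+/- against wild type.

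No Rgs gene was called between the sexes. Females were compared with males over all groups, with 24 libraries each. By edgeR no Rgs gene passed, where 2.93% of all genes did, and DESeq2 called 0 members too. At an unadjusted p under 0.05 there was 1 member, and there were 3600 genes. It was Rgs10, with 26.3 to 38.2 CPM with a median of 32.3 in females, against 22.7 to 37.4 CPM with a median of 30.1 in males. The 2 sexes covered nearly the same range, and the difference was 0.072 (SE 0.027) with an unadjusted p of 0.00982 and an adjusted p of 0.132. Rgs4 was at 0.071 (SE 0.043) and Rgs8 at 0.044 (SE 0.025), and the other 7 members lay between -0.035 for Rgs9 and 0.015 for Rgs7. The Q140 difference, averaged over both Msh3 mutant backgrounds, was also compared between females and males. No member passed by edgeR or by DESeq2, and 0% of all genes did, with 0 members and 1489 genes at an unadjusted p under 0.05. The value nearest to the threshold was Rgs6 at -0.18 (SE 0.091), with an unadjusted p of 0.0506.

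Most tested partners of the R7 subfamily fell in Q140 Msh3+/- against Msh3+/-. Of 5 listed partners 4 were tested, and 3 fell and 0 rose, where 3.49% of all genes fell and 2.96% rose, the background for the lists that follow as well. All these lists were chosen with earlier results of these data known, so their counts are descriptions and nothing is read from them beside that background. Gnb5, the beta subunit without which R7 proteins are unstable, was at 159 ± 12.4 CPM in Q140 Msh3+/-, against 190.0 ± 16.4 CPM in Msh3+/- (-0.25, SE 0.051, adjusted p = 0.001). Rgs7bp, the membrane anchor of R7 complexes in the brain, was at 615 ± 54.2 CPM in Q140 Msh3+/-, against 748 ± 69.8 CPM in Msh3+/- (-0.28, SE 0.074, adjusted p = 0.014). Gpr158, an orphan receptor that binds Rgs7 at the membrane, fell by 0.19 (SE 0.054, adjusted p = 0.0199), and this call was lost without Q140 Msh3+/- F4, Msh3+/- F4 or Msh3+/- F5, with adjusted p up to 0.0647, and with the replicate number as a block (adjusted p = 0.0655). In Q140 Msh3-/- against Msh3-/- no partner passed, with -0.14 (SE 0.052) for Gnb5 and -0.12 (SE 0.076) for Rgs7bp. The partners' median in the first comparison was -0.22, beside 0.004 for all genes.

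No other Rgs gene was called lower in Q140 Msh3+/- against Msh3+/-. Of 12 listed, 9 were tested, and 3 rose and 0 fell. Rgs13, an R4 member of immune cells, was at 0.28 ± 0.0761 CPM in Q140 Msh3+/-, against 0.0793 ± 0.0454 CPM in Msh3+/- (1.81, SE 0.31, adjusted p = 0.000117), a level of few reads. Rgs19, an RZ member, was at 8.45 ± 0.86 CPM in Q140 Msh3+/-, against 7.31 ± 0.354 CPM in Msh3+/- (0.21, SE 0.061, adjusted p = 0.0268). Rgsl1, a gene named for its likeness to the family, was at 3.04 ± 0.644 CPM in Q140 Msh3+/-, against 2.27 ± 0.541 CPM in Msh3+/- (0.42, SE 0.12, adjusted p = 0.0287). Leaving out single libraries left 1 to 3 of these rises. That of Rgs19 was lost without Q140 Msh3+/- F2, M2 or M3, and that of Rgsl1 without Q140 Msh3+/- F1 or M2 or Msh3+/- F1, F4 or M4. With a stricter filter on low counts, in FPKM, in the fit of these 2 groups alone and by DESeq2, Rgs13 had no adjusted p. In Q140 against wild type, 4 of the 9 were lower past the threshold and 3 higher, where 10.2% of all genes were lower and 9.64% higher. In Q140 Msh3-/- against Q140, 4 of the 9 were higher and 1 lower, beside 1368 and 1006 of the 19975 genes tested.

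Most G protein subunits did not pass. All 26 listed were tested, and 2 rose and 0 fell, with a median of 0.0033. They were the gamma subunits Gng3, at 85.5 ± 8.53 CPM in Q140 Msh3+/-, against 71.7 ± 6.28 CPM in Msh3+/- (0.26, SE 0.058, adjusted p = 0.00415), and Gng4, at 14.1 ± 1.65 CPM in Q140 Msh3+/-, against 11.6 ± 1.37 CPM in Msh3+/- (0.28, SE 0.081, adjusted p = 0.0264). The call of Gng4 was lost without any 1 of Q140 Msh3+/- F2, M2 and M3 and Msh3+/- F1 and M2, and 0 to 2 subunits fell over the other settings. In Q140 Msh3-/- against Msh3-/-, 0 of the 26 passed.

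Among receptors of the striatum, falls outnumbered rises. Of 28 listed, 27 were tested, and 11 fell and 2 rose in Q140 Msh3+/- against Msh3+/-, where 3.49% of all genes fell and 2.96% rose, with a median of -0.16 and with 8 to 12 falls when 1 library was left out. The dopamine receptor Drd1 was at 255 ± 14.2 CPM in Q140 Msh3+/-, against 333 ± 5.68 CPM in Msh3+/- (-0.39, SE 0.048, adjusted p = 4.5e-07). Its counterpart Drd2 was at 231 ± 21.8 CPM in Q140 Msh3+/-, against 295 ± 18.2 CPM in Msh3+/- (-0.36, SE 0.064, adjusted p = 0.000211). The adenosine receptor Adora2a fell by 0.43 (SE 0.072), the orphan receptor Gpr6 by 0.42 (SE 0.055) and the muscarinic receptor Chrm4 by 0.28 (SE 0.056). The serotonin receptor Htr2c went the other way, at 92.6 ± 9.71 CPM in Q140 Msh3+/-, against 67.5 ± 6.67 CPM in Msh3+/- (0.45, SE 0.069, adjusted p = 2.65e-05). In Q140 Msh3-/- against Msh3-/-, Htr2c was the only listed receptor past the threshold and rose again, to 76.8 ± 8.28 CPM in Q140 Msh3-/-, against 58.2 ± 4.38 CPM in Msh3-/- (0.40, SE 0.072, adjusted p = 0.00686). Drd1 stood there at -0.13 (SE 0.049) and Adora2a at -0.29 (SE 0.074).

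Among the effectors, 16 of 18 listed were tested, and 2 fell and 0 rose in Q140 Msh3+/- against Msh3+/-. Adcy5, the main adenylyl cyclase of medium spiny neurons, was at 1512 ± 139 CPM in Q140 Msh3+/-, against 1937 ± 105 CPM in Msh3+/- (-0.36, SE 0.054, adjusted p = 1.29e-05). Plcb1, a phospholipase C driven by Gq, was at 459 ± 30.3 CPM in Q140 Msh3+/-, against 559 ± 48.9 CPM in Msh3+/- (-0.28, SE 0.055, adjusted p = 0.000777). Of 12 other regulators of alpha subunits, 11 were tested, and 2 fell and 0 rose. Gprin3, which binds active alpha subunits, was at 181 ± 22.1 CPM in Q140 Msh3+/-, against 229.8 ± 14.0 CPM in Msh3+/- (-0.34, SE 0.077, adjusted p = 0.00348). Gpsm1, which holds alpha subunits in their GDP-bound form, fell by 0.15 (SE 0.048, adjusted p = 0.0479), and 13 of the 17 libraries of the comparison each ended this call when left out (adjusted p up to 0.152). None of these effectors and regulators passed in Q140 Msh3-/- against Msh3-/-. Adcy5 is also in the medium spiny neuron marker list.

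**Figure D5:**
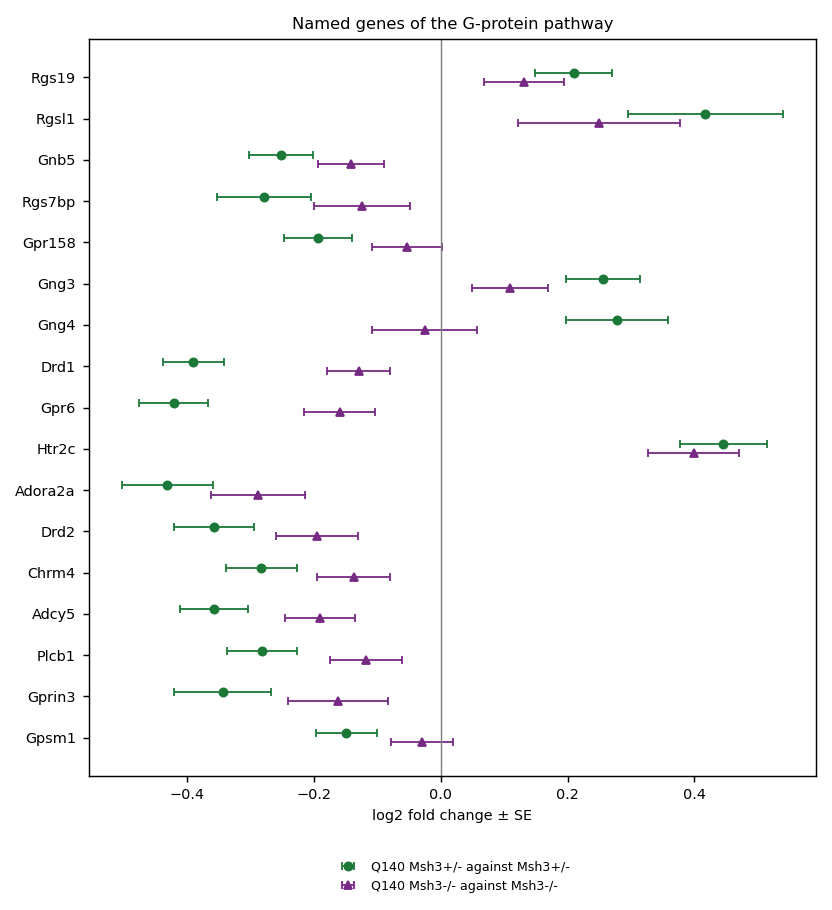
Log2 fold change ± SE of the named partner genes, receptors, effectors and regulators in Q140 Msh3+/- against Msh3+/- and in Q140 Msh3-/- against Msh3-/- (Rgs13, at 1.81 in the first, is left off for scale). The genes are plotted because they passed the threshold, all of them in the first comparison, so their distance from 0 there was fixed in part by that choice; Htr2c is at 0.45 and 0.40.

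The members' variation between libraries was described after the means of group and sex were taken out of log2 CPM, since the set is taken as selected on a difference between groups. Over the 48 libraries, Pearson's r was positive for 30 of the 45 pairs and negative for 15. It was highest between Rgs10 and Rgs14 at 0.57, between Rgs4 and Rgs9 at 0.57, between Rgs8 and Rgs9 at 0.52 and between Rgs9 and Rgs14 at 0.51. Among the 4 genes lower in both contrasts, the other pairs had 0.34 for Rgs4 and Rgs14, 0.32 for Rgs4 and Rgs10 and 0.30 for Rgs9 and Rgs10. Rgs2 was at 0.28 with Rgs4, 0.14 with Rgs9, 0.13 with Rgs14 and -0.13 with Rgs10. The lowest value, -0.44, was between Rgs4 and Rgs16, and the neighbours Rgs8 and Rgs16 were at -0.37. The libraries share their scaling, so these values are descriptions and carry no p.

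The genes most like each member were named by Pearson's r of log2 CPM over the 48 libraries, out of genes with a mean log2 CPM of at least 0. These values include the differences between groups, and those of the set's selection with them. Rgs9 was most like Pde10a (r = 0.95) and Pde1b (r = 0.95), both phosphodiesterases of medium spiny neurons, and Ppp4r4 (r = 0.94). Rgs4 was most like the cannabinoid receptor Cnr1 (r = 0.94), the sodium channel subunit Scn4b (r = 0.94) and the phosphatase Ppp1ca (r = 0.93), and Rgs14 like Gsg1l (r = 0.93), Adcy5 (r = 0.92) and Ddn (r = 0.92). Pde10a, Pde1b, Scn4b and Adcy5 are in the marker list of medium spiny neurons. Rgs10 was nearest to Hras (r = 0.83), Penk (r = 0.83) and Dlg4 (r = 0.82).

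Rgs2 had other company. Its nearest gene was the activity-induced transcription factor Egr1 (r = 0.91), followed by Midn (r = 0.91) and Dusp14 (r = 0.87). The same 3 genes led after group and sex were taken out, with Egr1 (r = 0.92), Midn (r = 0.91) and Dusp14 (r = 0.90). For the others the leading gene was weaker, Gdpd5 (r = 0.82) for Rgs8, Arap2 (r = 0.81) for Rgs17, Calm2 (r = 0.75) for Rgs7, Plcb4 (r = 0.69) for Rgs6 and Pole (r = 0.66) for Rgs16. After group and sex were taken out, the leading genes were Inf2 (r = 0.86) for Rgs9, Sema7a (r = 0.82) for Rgs4, Lzts3 (r = 0.74) for Rgs14 and Calb1 (r = 0.66) for Rgs10.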

How the data were processed

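Striatal RNA was sequenced in 48 libraries with a stranded Illumina TruSeq kit after RNeasy extraction, per the labels' protocols. The authors deposited read counts per gene and FPKM values, which scale the count by gene length and library total, for 48795 genes. The submitters' processing notes name STAR 2.7.5c, SAMtools 1.10, HTSeq 0.12.3 and GRCm38 (mm10), while whether reads were counted by strand is not given in the sources used here. A gene and its antisense partner may therefore share reads.

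The counts were tested with edgeR 4.0.16 in R 4.3.3 (quasi-likelihood fit, TMM scaling, group means with sex as covariate, all 48 libraries, a filter at 10 counts), with Benjamini-Hochberg adjustment over 19975 genes and a threshold of 0.05. Levels between genes used the deposited FPKM. Of all counts, 0.0383% lay in genes not tested. The spread between libraries, as a common value over all genes tested, was 10.3% (biological coefficient of variation).

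The members and all gene and marker lists were chosen with earlier results of these data known. From each list, the genes named were those past the threshold in Q140 Msh3+/- against Msh3+/- or in Q140 Msh3-/- against Msh3-/-, at most 6 a list by smallest p in the first. Genes most like a member were the 3 with the highest correlation of log2 CPM. Alternatives were DESeq2 1.42.0, limma 3.58.1 on log2(FPKM + 0.1) and log2(FPKM + 1), other scalings, filters and covariates, the replicate number as a block, and each library left out. On simulated counts for Q140 Msh3+/- against Msh3+/- (19815 genes), 62% of genes changed 1.2-fold and 90% of those changed 1.5-fold were recovered, and 10 of 165 calls were false. Each fold was given to 50 genes, in Q140 Msh3+/- only, leaving out genes of low level, with the groups otherwise equal. The data had more calls (592 higher and 697 lower), so these rates need not hold for them.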

Additional observations from a re-analysis of the deposited data

Results flagged for a closer look

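Of 60 groups of values (10 genes in 6 groups), 6 held a library whose gap to its nearest neighbour was large for the range of its group, where chance alone gives about 1 in 20. Rgs6 was 28.8 CPM in Msh3-/- F2, beside 21.3 to 24.8 CPM in the other 7 libraries of that group. Rgs2 was 75.7 CPM in Q140 M2, beside 101 to 121 CPM in the others. Rgs16 was 5.12 CPM in Q140 Msh3+/- F1, the library with choroid plexus reads, beside 3.10 to 3.997 CPM in the others. Rgs9 was 929 CPM in Q140 Msh3+/- M4, beside 723 to 805 CPM in the others. Rgs7 was 60.1 CPM in wild type M1, beside 51.0 to 54.1 CPM in the others, and Rgs9 was 1049 CPM in wild type F3, beside 871 to 929 CPM in the others.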

How the results depend on the processing

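In Q140 Msh3+/- against Msh3+/- the same 5 Rgs genes stayed past the threshold under every alternative setting and with every single library left out, and no called member changed direction. Over the settings Rgs4 ran from -0.46 to -0.38, Rgs14 from -0.47 to -0.39, Rgs9 from -0.27 to -0.21, Rgs10 from -0.21 to -0.13 (adjusted p up to 0.0407) and Rgs7 from -0.18 to -0.11 (adjusted p up to 0.0274). Of the member values in the tested comparisons, 790 kept their direction and their call over the settings. The other 20 changed direction and were not called. Values given as description were judged by another rule, with 384 shifted by less than their standard error and 36 by more.

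Counts over all genes moved more. In Q140 Msh3+/- against Msh3+/-, 592 genes higher and 697 lower became 1793 and 413 by library totals, 1769 and 419 on log2(FPKM + 0.1) and 1754 and 423 on log2(FPKM + 1), and the higher count was 354 in the fit of the compared groups alone. In Q140 Msh3-/- against Msh3-/-, 10 higher and 5 lower became 6 and 3 with no filter on low counts, 5 and 3 with the column of the well address as a factor, and 17 and 12 by DESeq2, and the lower count was 2 without the sex covariate and 11 in the fit of the compared groups alone. In Q140 Msh3-/- against Q140 Msh3+/-, 1 and 2 became 7 and 18 by DESeq2. The higher count there was 2 without Q140 Msh3+/- F1, the library that stood apart in choroid plexus markers, a choice made after seeing the data. In Msh3-/- against Msh3+/-, the higher count of 2 was 1 with the well column and on log2(FPKM + 0.1), 1 higher and 2 lower were found in the fit of the compared groups alone, and 2 lower by DESeq2. The difference of the Q140 effect gave 1 gene higher in the fit of the compared groups alone. For females against males, 330 higher and 255 lower became 200 and 147 without group as a covariate, the lower count was 166 with no filter, and the higher count was 214 and 216 on log2(FPKM + 0.1) and log2(FPKM + 1). With single libraries left out, Q140 Msh3-/- against Msh3-/- gave 3 to 10 higher and 2 to 7 lower, Q140 Msh3-/- against Q140 Msh3+/- 1 to 3 higher, and Msh3-/- against Msh3+/- 1 to 2 higher. The cause of these shifts was not tested.

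Same-numbered libraries did not deviate together in every pair. Over 8 pairs each, correlations ran from -0.30 to 0.40 in Q140 Msh3+/- against Msh3+/-, -0.44 to 0.32 in Q140 Msh3-/- against Msh3-/-, -0.23 to 0.34 in Q140 Msh3-/- against Q140 Msh3+/- and -0.47 to 0.55 in Msh3-/- against Msh3+/-, with 1, 1, 0 and 3 of 8 libraries nearest to their own number in that order. The samples are therefore taken to share only a number. With sex and number as a replicate block, Q140 Msh3+/- against Msh3+/- had 405 genes higher and 601 lower, with 5 members lower. Under that block Msh3-/- against Msh3+/- had 1 gene higher. Females against males was not run with the block, which contains sex, and 0 members were called there over the 48 fits with 1 library left out. The difference of the Q140 effect between females and males was not run with single libraries left out. A member that did not pass may still differ, since depth and spread limit what 7 to 9 libraries a group can show.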
